A study of Sparus aurata with 6 samples.

Results

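On the seabream array, 100 sequences were taken whose skin signal was lower in fish fed a phytogenic-supplemented diet at every probe that measures them. They were selected on the measured values themselves. A sequence qualified if it had 2 or more probes, if each of these probes was well above background on the 3 control arrays, and if at each of them all 3 phytogenic pools lay below all 3 control pools. Of the 15156 sequences on the array, 6780 had 2 or more probes, 4300 of these were well above background in the controls at every probe, and 154 of them (3.58%) met the last condition. The 154 were ranked by the smallest of their probes' differences between diets, and the first 100 were taken. Because the comparison between diets chose these sequences, every difference between diets given for them below is a description and carries no test.

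The fish were gilthead seabream (Sparus aurata) juveniles. The control group received a control diet, and the EOs group received the same diet with 0.5% of an additive made of garlic essential oil, carvacrol and thymol. Skin was sampled after 65 days of feeding, and RNA of 4 fish was combined into a pool. There were 3 such pools per diet, with 1 one-color array for each. A pool averages its 4 fish, so the spread given here is that between pools, and differences between single fish cannot be read from it. Per the study's methods, each diet was fed in 3 tanks, and 4 fish of each tank were taken for RNA. Whether a pool held the fish of 1 tank is not stated, so the spread between pools may include that between tanks. In whole skin, fewer cells of a type and less RNA per cell cannot be told apart.

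The outer layer of teleost skin is a living epithelium without a dead surface, covered by mucus that its own goblet cells secrete. Beneath this layer, still within the skin, lie the scales, pigment cells and connective tissue, and immune cells are scattered through all layers. Carvacrol and thymol are phenolic compounds of oregano and thyme, and garlic oil is rich in sulfur compounds, and both kinds of oil are used as feed additives in aquaculture.

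An oligonucleotide array of this kind was designed from cDNA clones and assembled contigs, with several short probes for 1 sequence. Where such probes do not overlap, agreement between them shows that a value does not rest on the hybridization of a single oligonucleotide. Probe sequences were not at hand, so overlap was not checked. The selection also fixed the direction at every probe, so agreement in direction supports nothing about this list. The sequences carry clone and contig names in the files, and none of the 15156 names was found in the reference gene table used here, so no gene name, function or nucleotide sequence is given. For the same reason the labelled tissue could not be checked against skin, muscle or blood markers. The names fell into the families of the array's design: 48 of the 100 sequences were cDN clones (36.4% of the 4300 detected sequences were), 26 were contigs named Contig (33.4%), 21 were contigs named Seabream (26.4%), 4 were SCT clones (2.58%) and 1 was a Mackenzie contig (1.14%). Each of the 14 cDN libraries contributed between 1 and 6 of them.

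Between 68.6% and 86.3% of spots were well above background on the 6 arrays, and the correlation between arrays over probes lay between 0.979 and 0.994. None of the spots reached saturation. In log2 signal, the 75th percentile that was subtracted from each array was 9.92, 10.62 and 10.03 on control arrays 1, 2 and 3 and 10.30, 10.42 and 10.48 on phytogenic arrays 1, 2 and 3. Levels below are therefore log2 values relative to that percentile, and a level of 0 is the brightness that 25% of probes exceed. Sorted by the scan date in the file headers, the arrays came in the order control 1 to 3, then phytogenic 1 to 3. Arrays with equal dates would keep this order, and equal dates were not checked. Where this was the order of scanning, it and the diet cannot be told apart. No label names a batch, so slide runs were inferred here as runs of consecutive slide numbers in the file headers. By this grouping, control pools 1 and 2 fell in another slide run than control pool 3 and the phytogenic pools. The part of this run in the results was not tested beyond the values given below.

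The 100 sequences were measured by 303 probes, since 97 of them had 3 probes and 3 had 4. Of these probes, 296 stood well above background in every pool. The other 7, in 4 sequences, were not above it on every phytogenic array. The 303 probes lay on 417 spots per array: 228 were printed once, 72 on 2 spots and 3 on 15 spots. The member spots were spread over the array, with 22.5%, 25.7%, 29.0% and 22.8% in its upper left, upper right, lower left and lower right parts. At the 72 probes with 2 spots, the median gap between the spots of 1 array was 0.06 on the log2 scale, and 95% of the 432 gaps were under 0.24.

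Most of the 100 sequences differed moderately between diets. Averaged over its probes, the signal was lower in the phytogenic pools by 4-fold or more in 3 sequences, by 2-fold to under 4-fold in 12, by 1.5-fold to under 2-fold in 23, by 1.25-fold to under 1.5-fold in 57 and by less than that in 5. In 2 of the 3 largest, Mackenzie-051508-Contig483 and cDN11P0005I23.F.ab1, some probes were not above background on every phytogenic array, and with normexp background correction their log2 differences were 1.80 and 1.20, under 4-fold. The median difference, control minus phytogenic, was 0.53 on the log2 scale (1.44-fold), and single sequences lay between 1.21-fold and 8.91-fold. Over the other 4200 detected sequences the median difference was 0.00, and over all 23593 probes tested the phytogenic pools were higher by a median of 0.04. In the deposited log2 values, which are background-subtracted signals without scaling, the median difference of the 100 sequences was 0.31. There the diets stayed apart at every probe in 18 of them, a count whose share over all detected sequences was not computed. The deposited values differ from the main ones in the signal as well as in the scaling. Scaling subtracts 1 percentile per array, so it moves the difference of every sequence by the same amount. The percentiles were 9.92, 10.62 and 10.03 on the control arrays and 10.30, 10.42 and 10.48 on the phytogenic arrays. Scaling therefore made control minus phytogenic larger. How far the other signal moved these values was not tested.

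**Figure D1:**
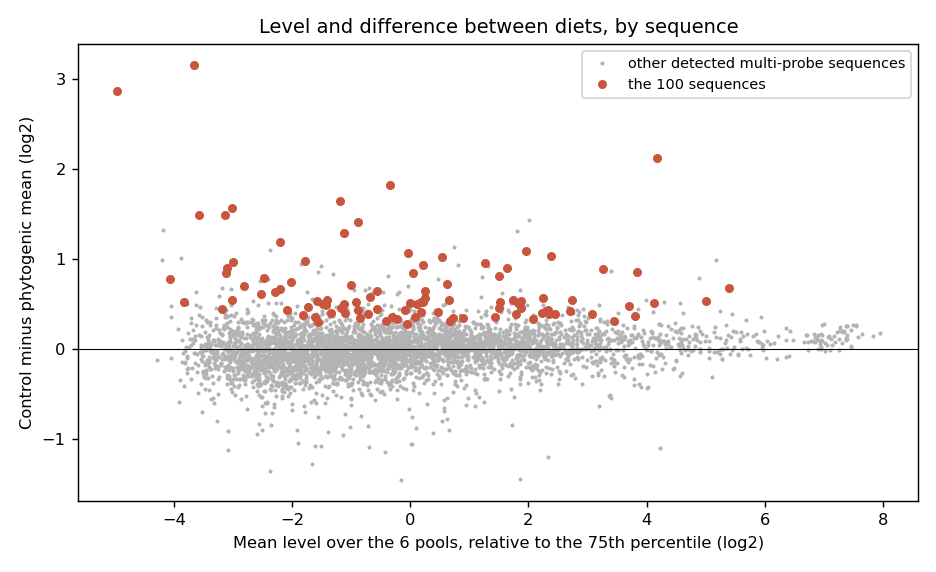
Each point is 1 sequence with 2 or more probes detected in the controls. The horizontal axis is its mean level over the 6 pools relative to the 75th percentile of the array (log2), and the vertical axis is the control mean minus the phytogenic mean (log2). The 100 sequences (red) lie above 0 by construction and reach 3.16, and the other 4200 (grey) are centered near 0.

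The difference was also given pool by pool. Against the mean of the phytogenic pools, the median sequence was higher by 0.57 in control pool 1, 0.49 in control pool 2 and 0.55 in control pool 3. Against the control mean, the median sequence was lower by 0.63 in phytogenic pool 1, 0.43 in phytogenic pool 2 and 0.52 in phytogenic pool 3. Against control pool 3 alone, the only control pool of the slide run that also holds the phytogenic pools, the median difference was 0.55. With all 3 control pools it was 0.53. The selection placed control pool 3 above all 3 phytogenic pools at each probe, so a positive difference was fixed. These values therefore say nothing on the part of the slide run.

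As a count, 290 of the 303 probes had an unadjusted p under 0.05 in limma's fit over all probes, where 4.15% of all 23593 probes tested were called lower in the same way. In 88 sequences every probe was among the 290, and each of the 100 had at least 1. After Benjamini-Hochberg adjustment over all probes, 3 probes of 2 sequences were under 0.05, where 0.0424% of all probes were called lower. Taken singly, 7.5% of all probes tested had all 3 phytogenic pools below all 3 control pools, the condition each of the 303 probes met by choice. The selection used this contrast, so the counts describe the list and support nothing about it. The unadjusted count was 116 when the slide run entered as a block and 54 in the deposited values without scaling. It was 189 without control pool 3 and 182 without phytogenic pool 3. The adjusted count was 5 without control pool 2 and 0 without any 1 of the other 5 pools, and it was also 0 when the slide run or the pool number entered as a block. The share of all probes called lower was not counted in these other fits. Whether the changes are particular to the 303 probes therefore cannot be read from them.

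Mackenzie-051508-Contig483 ranked first. Its level, averaged over 3 probes, was -1.38, -2.93 and -1.95 in control pools 1, 2 and 3, and -5.86, -4.78 and -5.09 in phytogenic pools 1, 2 and 3. The pools of a diet were far from each other (SD 0.78 in the controls and 0.56 in the phytogenic pools), but the lowest control pool still lay 1.85 above the highest phytogenic pool. The difference was 3.16 (SE 0.55, 3 pools per diet), or 8.91-fold. As processed intensity before scaling, the mean of the probes was 370.2, 206.5 and 271.5 units in the controls and 21.8, 50.1 and 42.0 units in the phytogenic pools. Only 1 of its 3 probes was well above background on all phytogenic arrays, and the other 2 were so on 2 of 3, so the lower level is close to what the array can resolve. With the normexp background correction and its offset of 50, the difference was 1.80.

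The clone cDN11P0005I23.F.ab1 ranked next. It measured -2.95, -4.23 and -3.43 in the control pools and -6.36, -6.40 and -6.45 in the phytogenic pools, with the phytogenic values close to background. Probes CUST_16129_PI419285025 and CUST_16131_PI419285025 did not rise well above background in any of the phytogenic pools. Their measured signal was 10.2-fold and 7.19-fold lower in these pools. With the phytogenic signals at background, the size of these folds is uncertain, and they are not lower limits. The third probe was above background on 1 phytogenic array only. The first of these probes was 1 of the 3 counted above after adjustment. The mean difference over its probes was 2.87, and 1.20 with normexp, and signals at background enter both.

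The clone cDN11P0005O20.F.ab1 combined a large difference with a bright signal. Its 4 probes averaged 5.49, 4.91 and 5.33 in the control pools, and 2.05, 4.04 and 3.28 in the phytogenic pools. The control pools were close to each other (SD 0.30), whereas the phytogenic pools were spread (SD 1.00), with pool 1 far below pool 2. The difference was 2.12 (SE 0.60), or 4.34-fold, and the 4 probes gave between 2.07 and 2.15. In processed intensity the phytogenic pools read 5241, 22624 and 13863 units against 43512, 47183 and 41908 units in the controls. This sequence was therefore far from background and from saturation in every pool.

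**Figure D2:**
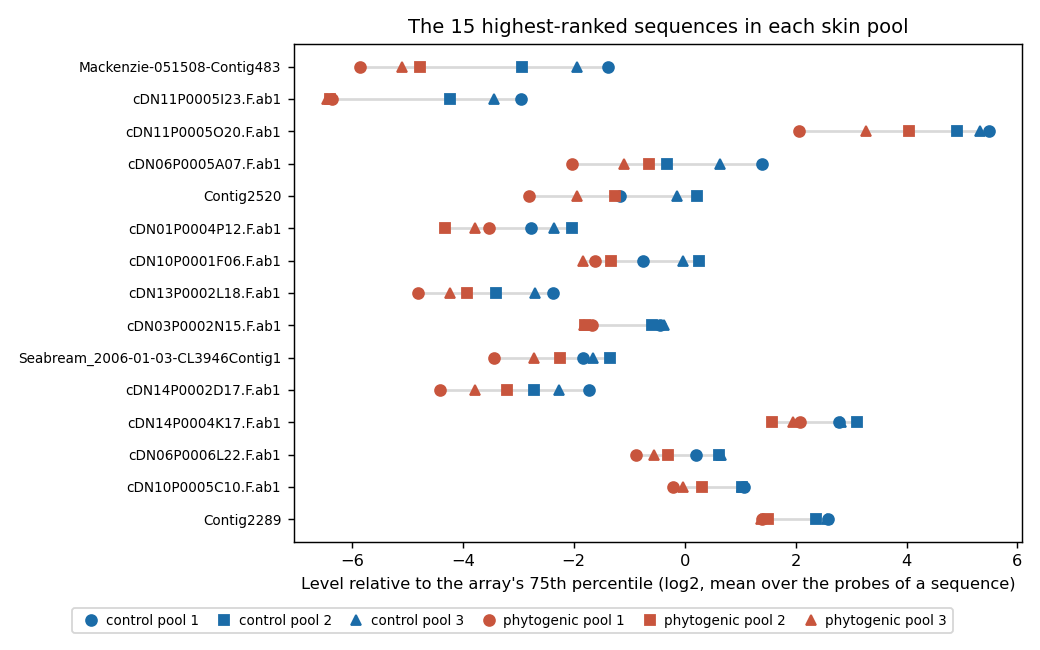
Level of the 15 highest-ranked sequences in each of the 6 pools, as log2 signal relative to the 75th percentile of the array, averaged over the probes of the sequence. Blue symbols are control pools and red symbols phytogenic pools, with the shape giving the pool number. In cDN11P0005O20.F.ab1 the control pools lie between 4.91 and 5.49 and the phytogenic pools between 2.05 and 4.04.

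The clone cDN06P0005A07.F.ab1 had levels of 1.40, -0.33 and 0.63 in control pools 1, 2 and 3, and of -2.04, -0.65 and -1.09 in phytogenic pools 1, 2 and 3. The lowest control pool and the highest phytogenic pool were only 0.32 apart, although the means differed by 1.82 (SE 0.64), or 3.54-fold. Its order of pools was the same as in Mackenzie-051508-Contig483 and cDN11P0005O20.F.ab1, with control pool 2 lowest and phytogenic pool 2 highest. Contig2520 showed another order among the controls. Its levels were -1.17, 0.23 and -0.13 in the control pools and -2.81, -1.26 and -1.94 in the phytogenic pools, so control pool 1 lay only 0.10 above phytogenic pool 2. Its difference was 1.65 (SE 0.61), or 3.13-fold, and its 3 probes agreed closely, between 1.59 and 1.70.

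The clone cDN01P0004P12.F.ab1 measured -2.77, -2.03 and -2.36 in the control pools and -3.53, -4.31 and -3.77 in the phytogenic pools. Here phytogenic pool 2 was the lowest, unlike in the sequences above. Its difference was 1.49 (SE 0.31), or 2.81-fold, and 1.01 with normexp. The clone cDN10P0001F06.F.ab1 had -0.75, 0.25 and -0.03 in the control pools and -1.62, -1.33 and -1.82 in the phytogenic pools. Its difference was 1.41 (SE 0.33), or 2.66-fold, with a gap of 0.58 between the nearest pools of the 2 diets at the mean over probes. In the deposited values without scaling, neither of these clones kept its diets apart at every probe.

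The clone cDN13P0002L18.F.ab1 was dim in both diets, with -2.37, -3.41 and -2.70 in the control pools and -4.80, -3.92 and -4.23 in the phytogenic pools. Its difference was 1.49 (SE 0.40), or 2.81-fold, and 1 of its 3 probes was not above background on every phytogenic array. With normexp its difference was 0.96, and its diets no longer stayed apart at every probe.

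The clone cDN03P0002N15.F.ab1 had the smallest SE among the first 10. It measured -0.44, -0.59 and -0.38 in the control pools and -1.66, -1.81 and -1.81 in the phytogenic pools, with an SD of 0.11 and 0.08, and the diets were 1.08 apart at their nearest pools. Its difference was 1.29 (SE 0.08), or 2.45-fold. The other 2 of the 3 probes counted after adjustment belonged to it, and that count rests on the pools that chose it. Its difference was 0.96 in the deposited values, another signal and without scaling, and 1.05 with normexp.

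Seabream_2006-01-03-CL3946Contig1 came at rank 10, with -1.83, -1.35 and -1.66 in the control pools and -3.43, -2.25 and -2.72 in the phytogenic pools. Its difference was 1.19 (SE 0.37), or 2.28-fold, and phytogenic pool 1 was again the lowest. Its probes stood at different brightness but ranked the phytogenic pools alike.

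The 15 sequences with a 2-fold or larger difference were also the first 15 by rank. Of those not yet given, named here because of their size, cDN06P0006L22.F.ab1 had 0.21, 0.61 and 0.65 in the control pools and -0.88, -0.30 and -0.55 in the phytogenic pools, a difference of 1.06 (SE 0.22), or 2.09-fold. The clone cDN10P0005C10.F.ab1 had 1.07, 1.04 and 1.03 in the control pools and -0.21, 0.31 and -0.04 in the phytogenic pools, a difference of 1.02 (SE 0.15), or 2.04-fold. The control pools of the latter were almost alike (SD 0.02), and its phytogenic pools were less so (SD 0.26).

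Just below 2-fold, the spread within a diet differed from sequence to sequence. Contig2462, chosen after its values were seen, had 2.09, 2.05 and 2.13 in the control pools but 0.69, 1.77 and 1.09 in the phytogenic pools. Its control SD was 0.04 and its phytogenic SD 0.55, with a difference of 0.90 (SE 0.32), or 1.87-fold. In Seabream_2006-01-03-CL3077Contig1, chosen likewise, the controls were the more variable, with 0.95, -0.02 and 0.48 against -0.37, -0.42 and -0.34, an SD of 0.48 against 0.04. Over the 100 sequences the median SD was 0.14 in the control pools and 0.13 in the phytogenic pools, and over the other 4200 it was 0.16 and 0.10. The selection limits the spread within a diet relative to the difference, so nothing is read from these medians.

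**Figure D3:**
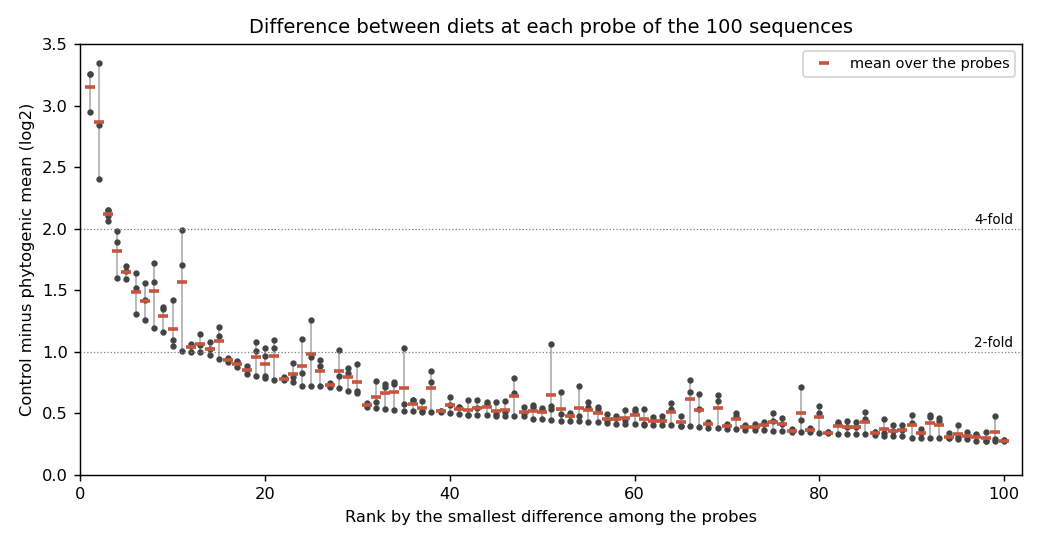
Control mean minus phytogenic mean (log2) at each probe (black points) of the 100 sequences, ordered by rank, with the mean over the probes as a red bar and a grey line joining the probes of 1 sequence. The dotted lines mark a 2-fold and a 4-fold difference. The smallest difference falls from 2.95 at the first rank to 0.27 at the last.

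The probes of 1 sequence gave similar differences. The SD over its probes had a median of 0.06 on the log2 scale in the 100 sequences and 0.08 in the other 4200. The choice by the smallest probe favors agreement, so these medians are not set against each other further. The smallest difference of a sequence was 0.79 of its largest in the median, and between 0.42 and 0.98 in single sequences.

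The direction of every probe was fixed by the selection, but the size varied between probes in some sequences. In Seabream_2006-01-03-CL3706Contig1, 3 probes gave between 0.45 and 0.56 and CUST_18927_PI419285025 gave 1.07. That probe read -2.72, -3.06 and -2.91 in the control pools and -3.83, -3.94 and -4.12 in the phytogenic pools. Over the 4 probes the sequence had -0.25, -0.19 and -0.29 in the control pools and -0.88, -0.80 and -0.996 in the phytogenic pools, a difference of 0.65 (SE 0.06), or 1.57-fold. The clone cDN14P0002D17.F.ab1 had probes at 1.01, 1.70 and 1.99. Its mean levels were -1.72, -2.71 and -2.27 in the control pools and -4.42, -3.20 and -3.78 in the phytogenic pools, a difference of 1.57 (SE 0.46), and its last probe was not above background on every phytogenic array.

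In 3 sequences a probe was printed on 15 spots, and these show the error between spots of an array. For CUST_162_PI419368177 of cDN11P0005O20.F.ab1, the SD over the spots of 1 array was between 0.06 and 0.13, and the lowest of all control spots (4.75) lay above the highest phytogenic spot (4.22). The difference between phytogenic pools 1 and 2 at this probe, 2.08 against 4.10, was larger than the SD between spots on any array. With 1 array per pool, a difference between pools and one between arrays cannot be told apart.

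For CUST_173_PI419368177 of cDN13P0005H11.F.ab1, the means over 15 spots were -2.14, -2.02 and -2.36 in the control pools and -2.98, -2.86 and -3.04 in the phytogenic pools. The SD over spots was between 0.06 and 0.13, and the ranges overlapped slightly. The lowest control spot was -2.75 (pool 3), and the highest phytogenic spots were -2.70 (pool 2) and -2.715 (pool 1). Over its 4 probes this clone had -2.50, -2.65 and -2.83 in the control pools and -3.58, -3.53 and -3.56 in the phytogenic pools, a difference of 0.90 (SE 0.10), or 1.86-fold. It was 0.69 in the deposited values without scaling, 0.70 with normexp and 0.73 against control pool 3 alone.

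For CUST_107_PI419368177 of Seabream_2006-01-03-CL3706Contig1, the means were 0.43, 0.72 and 0.51 in the control pools and -0.10, 0.18 and -0.02 in the phytogenic pools. The SD over spots was between 0.04 and 0.10. The lowest control spot (0.27, pool 1) and the highest phytogenic spot (0.30, pool 2) just overlapped. That the means over 15 spots lie apart was fixed by the selection.

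**Figure D4:**
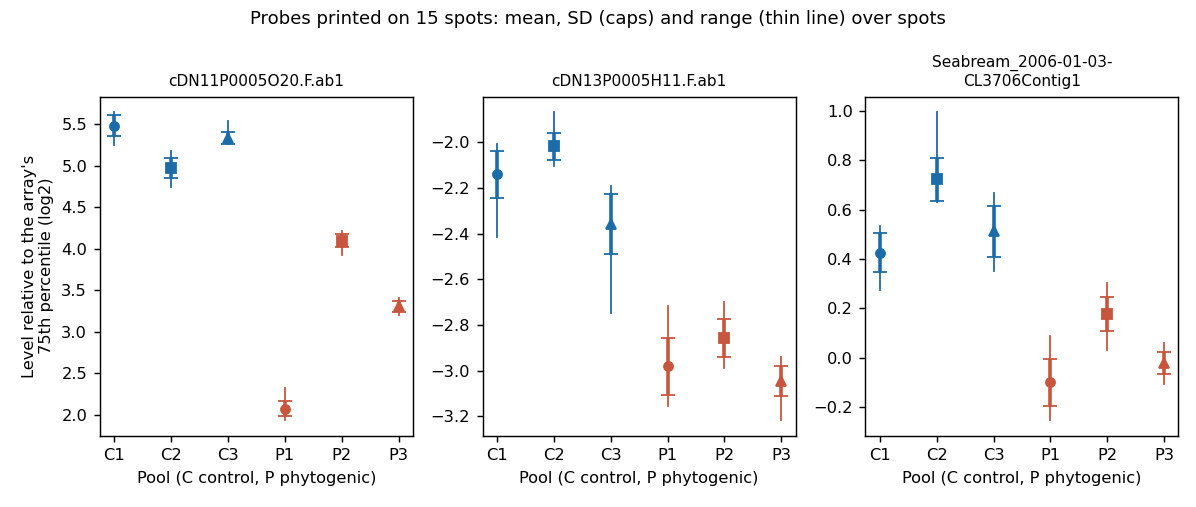
Level at the 3 probes printed on 15 spots per array, as log2 signal relative to the 75th percentile, in control pools C1 to C3 (blue) and phytogenic pools P1 to P3 (red). Symbols are means over the spots, caps 1 SD and thin lines the range over spots. The spots of the diets are fully apart for cDN11P0005O20.F.ab1, and their ranges overlap slightly in the other 2 sequences.

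The sequences covered the range of signal on the array. Ranked among the 4300 detected sequences, 21 of the 100 lay in the lowest 25% of mean signal, 24 and 23 in the next groups up to the 50th and the 75th percentile, and 32 above it. The median size was 1.72-fold in the lowest group and 1.41-fold, 1.43-fold and 1.42-fold in the others. The mean signal includes the phytogenic pools, so a large difference itself lowers it, and nothing is read from these sizes. Over the 100 sequences the difference was weakly related to the control level (Pearson's r = -0.19, Spearman's rho = -0.19, across sequences that share the 6 arrays and are not replicates). Signal also depends on the probe, so these ranks are not amounts of transcript.

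The brightest in the controls was Contig1541, with 5.52, 5.79 and 5.87 in the control pools and 5.00, 5.01 and 5.14 in the phytogenic pools. Its difference was 0.67 (SE 0.12), or 1.60-fold, 0.46 in the deposited values without scaling and 0.82 against control pool 3 alone. The dimmest in the controls was SCT982_B03_JP7_4B3_015.ab1, with -3.40, -3.81 and -3.80 in the control pools and -4.51, -4.45 and -4.40 in the phytogenic pools. All 3 of its probes were above background on every array, and they gave between 0.77 and 0.79. Its mean difference was 0.78 (SE 0.14), or 1.72-fold, and it ranged from 0.53 with normexp to 0.96 with quantile normalization.

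The pools within a diet differed in a recurrent way. Phytogenic pool 1 was the lowest of its diet in 67 of the 100 sequences, against 41.3% of the other 4200 detected sequences, and phytogenic pool 2 was the highest in 64, against 39.8%. Both held together in 57 sequences, against 32.1% of the others. The opposite order, with pool 2 lowest and pool 1 highest, was found in 13, against 32.3%. The selection acts on the same 6 values, and sequences share the pools, so this is a description without a test. Among the controls, pool 2 was lowest in 47 (44.7% of the others) and pool 1 highest in 42 (43.8%). Control pool 3 was highest in 23, against 16.8% of the others, and the order with pool 3 highest and pool 2 lowest was found in 14, against 7.88%.

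Sequences of either common control order were present. In 33 sequences control pool 1 was highest and pool 2 lowest, with a median of 1.44-fold, and in 30 pool 2 was highest and pool 1 lowest, with a median of 1.46-fold. Phytogenic pool 1 was lowest in 21 of the 33 and in 21 of the 30. The lowest phytogenic pool was the same at every probe in 50 of the 100 sequences and in 49.3% of the others.

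**Figure D5:**
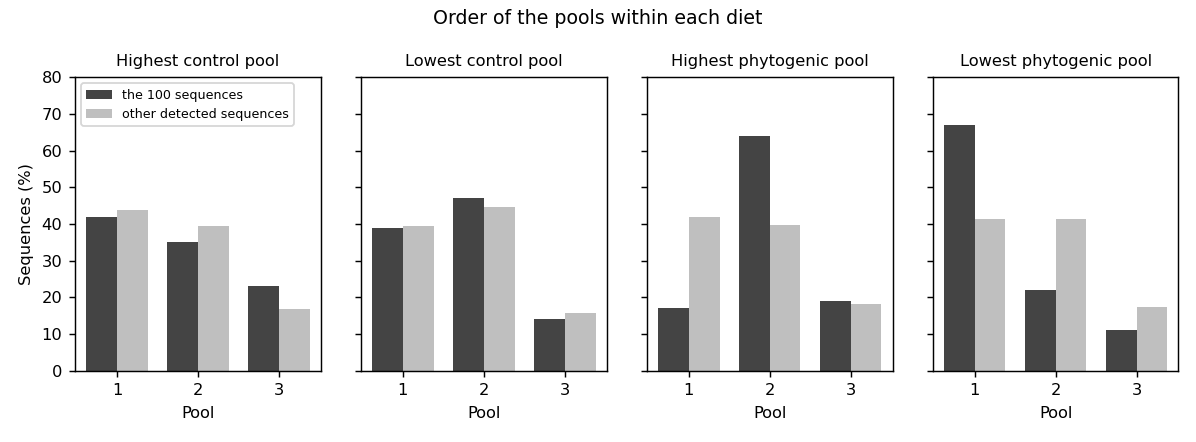
Share of sequences (%) in which each pool was the highest or the lowest of its diet, for the 100 sequences (dark) and the other 4200 detected sequences with 2 or more probes (light). Phytogenic pool 1 is the lowest of its diet in 67 of the 100 sequences and pool 2 the highest in 64. Among the controls, pool 3 is the highest in 23 of the 100 sequences and in 16.8% of the others.

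In the deposited values, another signal and without scaling, the diets stayed apart mainly in sequences of high rank. The median over the 100 sequences was 10.21, 10.76 and 10.32 there on control arrays 1, 2 and 3. On phytogenic arrays 1, 2 and 3 it was 9.93, 10.13 and 10.19, so the dimmest control array and the brightest phytogenic array nearly met. Of the 18 sequences whose diets stayed apart at every probe, 9 were among the first 15 and 0 among the last 50. With the other settings this number was 90 (scaling by the median), 85 (quantile) and 71 (normexp), and 14 sequences stayed apart under all 4. The selection used this condition in the same arrays, and the share over all detected sequences was not computed under these settings. The counts therefore describe the list and support nothing about it. The 14, which are named here because of their values, included Mackenzie-051508-Contig483, cDN11P0005I23.F.ab1, cDN11P0005O20.F.ab1, cDN06P0005A07.F.ab1, cDN03P0002N15.F.ab1 and cDN13P0005H11.F.ab1 described above. Of the first 10 by rank, Contig2520, cDN01P0004P12.F.ab1, cDN10P0001F06.F.ab1 and Seabream_2006-01-03-CL3946Contig1 did not stay apart in the deposited values. The clone cDN13P0002L18.F.ab1 did not with quantile or normexp.

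Contig2289 was another of the 14, with 2.59, 2.37 and 2.57 in the control pools and 1.40, 1.50 and 1.37 in the phytogenic pools, a difference of 1.09 (SE 0.08), or 2.13-fold. The clone cDN14P0004K17.F.ab1 had 2.78, 3.104 and 2.82 in the control pools and 2.07, 1.57 and 1.95 in the phytogenic pools, a difference of 1.04 (SE 0.18), or 2.05-fold. Both were bright in every pool, and their nearest pools were 0.88 and 0.71 apart. The smallest difference among the 14 was that of cDN06P0003P22.F.ab1, with 2.05, 1.51 and 1.78 against 1.26, 1.23 and 1.27, a difference of 0.53 (SE 0.16), or 1.44-fold. Its phytogenic pools had an SD of 0.02.

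The list ends within a continuous series. Inside it, at ranks 99 and 100, the smallest probe difference was 0.27 in both Contig1472 and Contig768. Just outside it, at ranks 101 and 102, it was 0.27 in both Contig3165 and Seabream_2006-01-03-CL3277Contig1. Contig768 had 0.13, -0.05 and 0.20 in the control pools and -0.22, -0.10 and -0.24 in the phytogenic pools, so its diets were 0.04 apart at a difference of 0.28, the smallest of the 100. Contig1472 had 1.11, 1.00 and 1.09 in the control pools and 0.72, 0.68 and 0.75 in the phytogenic pools, with a difference of 0.35. Contig3165, which was left out, had 0.77, 0.48 and 0.61 against 0.24, 0.32 and 0.27. A further 54 sequences met the conditions and ranked below the list.

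Some sequences met the condition at only part of their probes. Of the 4300 detected sequences, 3505 had no probe with the phytogenic pools below all control pools, 641 had some and 154 had all. Among sequences with 3 probes, 444 had 1 such probe, 182 had 2 and 151 had 3. In the opposite direction, every probe was higher in all phytogenic pools in 112 of the same 4300 sequences. These had to be well above background on the control arrays only. Sequences dim in the controls and brighter in the phytogenic pools were thus left out, so 112 and 154 are not a like comparison.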

How the data were processed

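RNA of 6 skin pools was hybridized to one-color Agilent arrays. The authors deposited each array's spot intensity values from Feature Extraction (version 10.7.3.1 per the file headers; the methods name another), background-subtracted, detrended and not scaled between arrays. The authors also deposited log2 values. They match log2 background-subtracted spot signals within 5e-09, with medians of 8.25, 8.82 and 8.20 (control pools 1 to 3) and 8.51, 8.57 and 8.60 (phytogenic pools 1 to 3), hence without centering or scaling.

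Control and outlier spots were left out (the choice of sequences kept outlier spots), log2 processed signals were averaged per probe, and each array's 75th percentile was subtracted. A probe counted as well above background with at least 50% of its spots so, and was tested if it was so on every array of a diet. Values of a sequence are means over its probes, and SEs are over 3 pools per diet. Diets were compared over 23593 probes by limma 3.58.1 (R 4.3.3; two-sided tests, p adjusted after Benjamini-Hochberg), checked on simulated data. The number of arrays limits the precision. Tables used pandas 2.3.3 in Python 3.11.15.

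The members, lists and alternatives were chosen with earlier results of these data known. Sequences named were the first 10, those with most probes, the 3 with the most unlike probes, the last 2 of the list, the next 2 outside it and the brightest and dimmest in the controls. Gene and marker lists were not used, because 0 of the names matched. Pool numbers did not pair the samples.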

Additional observations from a re-analysis of the deposited data

How the results depend on the processing

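Of 304 values computed for the 19 named sequences under the alternatives, 283 moved by less than 1 SD between pools, 21 by more, and 0 changed direction. All these sequences met the conditions of the selection, so leaving out a pool could not change the direction. The pool-number block left the values unchanged. The slide-run block and the comparison within that run gave the same values, and both are counted. This tally therefore supports nothing about the list. The number of the 303 probes with an unadjusted p under 0.05 (290) was 54 in the deposited values without scaling and 116 when the slide run entered as a block, and lay between 182 (without phytogenic pool 3) and 258 (without control pool 2) when 1 pool was left out. The number with an adjusted p under 0.05 (3) was 6 with quantile normalization or with array brightness as a covariate, 5 with normexp and 0 when the slide run entered as a block, and lay between 0 (in 5 of the 6 cases) and 5 (without control pool 2) when 1 pool was left out. The methods' t-test gave 249 and, after adjustment, 3. The share of all probes called was not counted under these alternatives, so the counts describe the 303 probes only. In the deposited values without scaling, the median difference was 0.31 and 18 sequences stayed apart, where the share over all detected sequences was not computed. Choosing the 100 again without 1 pool, an alternative added after seeing the data, kept between 45 (without control pool 1) and 95 (without phytogenic pool 3) of them, with 50 without control pool 2 and 63 without phytogenic pool 2. All 100 still met the conditions in each of these choices, as they had to. With fewer pools more sequences met them, 365 without control pool 1 and 465 without control pool 2, against 154 with all pools. The sequences that dropped out were therefore outranked by others. Ranking by the mean over the probes kept 94. Apart from the shift by scaling and the larger number of sequences that met the conditions, why these values moved was not tested. The pool number as a replicate block gave 224 probes unadjusted and 0 adjusted; deviations of same-numbered pools correlated at -0.10, -0.22 and -0.01, no pool correlated best with its own number, and the numbers were not taken as pairs. At the 7 probes near background, the size of the difference is limited by the signal over background.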

Other observations

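Some sequences had large differences but missed the list at 1 probe. They were chosen after their values were seen and have no test. In Seabream_2006-01-03-CL4166Contig1, a bright contig, the 3 probes differed by 0.76, 0.86 and 0.75 on the log2 scale, but at the first of them control pool 2 (5.20) lay just below phytogenic pool 2 (5.25). In cDN13P0003K11.F.ab1 the differences were 0.69, 0.68 and 0.54, and at the last probe control pool 1 (-0.70) lay below phytogenic pool 2 (-0.49). In cDN12P0003G02.F.ab1, 2 probes differed by 0.92 and 0.90 and the third by 0.07, so the probes of this clone did not measure the same difference.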
